A study of Danio rerio with 3 samples.

Results

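The proteasome is the protease that takes apart proteins tagged with ubiquitin. Rings of alpha and beta subunits form its hollow core particle, in which some of the beta subunits cut the protein chain. A regulatory particle caps the core: its ATPase subunits unfold the substrate and thread it in, and its non-ATPase subunits bind ubiquitin, remove it and hold the cap together. In mammals, interferon and immune stimulation exchange the catalytic beta subunits for induced ones, which favours peptides for antigen presentation. In human and mouse cells, proteasome genes are transcribed more strongly when the proteasome cannot keep up with damaged protein.

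The genes described here are all rows of a zebrafish heart expression table whose symbol starts with psma, psmb, psmc or psmd followed by a digit, in either case. The rule matched 48 of 26320 rows. Of these, 47 name proteasome genes, and psmc3ip, a meiotic recombination factor that shares the start of its name, had 4 unique molecular identifiers (UMIs, counted RNA molecules) in all and was kept apart. The 47 rows held 9 core alpha genes, 7 constitutive core beta genes, 6 induced or specialised core beta genes, 7 ATPase genes, 15 non-ATPase genes and 3 genes of assembly chaperones, which carry psmd names but leave the finished particle. At least 1 UMI was found for 44 of the 48 rows. The 4 rows at 0 UMIs were psmd2, PSMD2 (2 of 2), psmd4a and psmb11b, and the chaperone gene psmd5 had 3 UMIs. The other 42 subunit genes had 10 or more UMIs over all cells and are called measured below, and 22 of them had 100 or more. Names are printed as deposited. RefSeq lists psma2 as an older name of psma2a and psma2b and psma6b also as one of psma6l, so for these and the other a and b pairs the split of reads between copies is uncertain.

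The cells came from adult zebrafish hearts before injury (day 0) and 3 and 7 days after ventricular cardiomyocytes were ablated with a drug. The study concerned heart regeneration, mTOR signalling and amino acids. Each day had 1 library (10x Chromium droplets), made from the pooled cells of 6 hearts, 3 male and 3 female, of fish about 5 to 12 months old. The injured fish were kept in 5 mM metronidazole with 0.1% DMSO for 48 hours, and the day 0 hearts were taken before the drug. Whether the day 0 fish had been kept in vehicle (0.1% DMSO) is not stated. Metronidazole kills cells that carry a bacterial nitroreductase. The strain is labelled AB. The protocols name the line vmhc:mCherry-NTR, in which a ventricular myosin promoter drives the nitroreductase, among several lines, without saying which one gave these libraries. The drug, the injury and the library all differ between day 0 and the later days and cannot be told apart.

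The libraries of day 0, 3 and 7 held 272, 114 and 368 cells with 857410, 493660 and 1355246 UMIs in total, and medians of 2677, 3260.5 and 3124.5 UMIs per cell. The deepest day 3 cell, with 31129 UMIs, held 6.31% of that library. Across the days, 1 barcode sequence occurred in more than 1 library. The deposited clusters at resolution 0.4 carried numbers only. By marker genes, clusters 0, 2, 3 and 6 were endothelial-like, cluster 1 mural-like, cluster 4 fibroblast-like and cluster 5 cardiomyocyte-like. Mural markers summed to 17728 CPM in cluster 1, fibroblast markers to 21232 CPM in cluster 4 and cardiomyocyte markers to 131070 CPM in cluster 5. Cluster 4 also had 10944 CPM of mural markers, against 497 to 2505 CPM in clusters 0, 2, 3, 5 and 6. It thus carried both marker sets. In clusters 0 and 3, none of the 10 leading genes was an endothelial marker, so those names rest on the level of the listed markers. The 22 listed endothelial genes summed to 5284, 7826, 3253 and 12027 CPM in clusters 0, 2, 3 and 6, against 427, 374 and 1997 CPM in clusters 1, 4 and 5. Detection alone does not separate the clusters, since 17 to 21 of the 22 were found in each. By day, the level does not separate cluster 3 either. Its day 3 cells had 2552 CPM of endothelial markers (tie1 and sox18 at 0). Day 0 cells of cluster 5 had 3213 CPM of them. Epicardial markers stood at 3694 CPM in the day 3 cells of cluster 3, with tbx18, tcf21 and wt1b at 0. The name of cluster 3 is thus uncertain. A cluster on a given day is described where it had at least 10 cells. Levels are summed UMIs scaled to a total of 1000000 (CPM), with exact 95% Poisson intervals. With 1 library per day there was no test, and all intervals cover counting error alone. Overlap of such intervals does not show that levels are equal.

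The 47 genes had 7726 UMIs together, which was 0.285% of all UMIs, and 18 of the 754 cells had none. Their summed level in the endothelial-like clusters was 1813 CPM at day 0 (166 cells), 5581 CPM at day 3 (113 cells) and 2173 CPM at day 7 (224 cells). The day 3 level was thus 3.08-fold the day 0 level (95% interval 2.86 to 3.32). A large part of that difference sat in a few cells, which are described first because they decide how large it is.

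In 14 of the 754 cells, a single subunit gene had at least 10 UMIs and at least 5% of all its UMIs in the series. This definition of an outlying cell was chosen after the data were seen. The 14 entries fell on 12 of the 44 detected rows and held 1445 UMIs, or 18.7% of all subunit UMIs. Of these entries, 10 were in day 3 cells, 4 in day 7 cells and 0 in day 0 cells. Such entries were common in this table: 38.3% of all genes with 50 or more UMIs had at least 1.

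The most extreme was psma6b, the gene of a core alpha subunit. One day 3 cell of cluster 3 held 306 of its 409 UMIs, which made up 7.37% of everything counted in that cell, and no other cell had more than 3. For psma2, another alpha gene, 2 day 3 cells of cluster 3 held 258 and 198 of 831 UMIs, and no other cell had more than 7. The constitutive beta gene psmb3 had 238 of 472 UMIs in the deepest day 3 cell, and psmb2 had 119 of 466 in a day 3 cell of cluster 3. The remaining entries held 10 to 85 UMIs, the highest for psmd1, the gene of a large scaffold subunit of the regulatory particle, in a day 7 cell of cluster 4. The cells rich in psma6b and psma2 were not poor in the rest of the complex: beside the rich gene, the richest psma6b cell had 26 UMIs of 13 other subunit genes and the richest psma2 cell had 18 UMIs of 12 others. That is 6762 and 5311 CPM of the other subunits, above the median of 3757 CPM for all subunits in day 3 cells of cluster 3. Other outlying cells went both ways. The psmd1 cell had 5098 CPM of the other subunits, above its group's median of 3637.5. The cells rich in psma6a (cluster 6, day 3), psma4 (cluster 5, day 7) and psmb6 (cluster 0, day 3) had 459, 1220 and 1360 CPM. Their groups' medians were higher, at 1824, 2396 and 2189 CPM. What these high counts stand for was not tested.

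With outlying cells left out gene by gene, the summed levels of the endothelial-like clusters on day 0, 3 and 7 were 1813, 3104 and 2173 CPM. The day 3 level was then 1.71-fold the day 0 level. Leaving out instead the richest cell of each gene in each group gave 3317 CPM at day 3 and 1612 at day 0, or 2.06-fold.

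**Figure D1:**
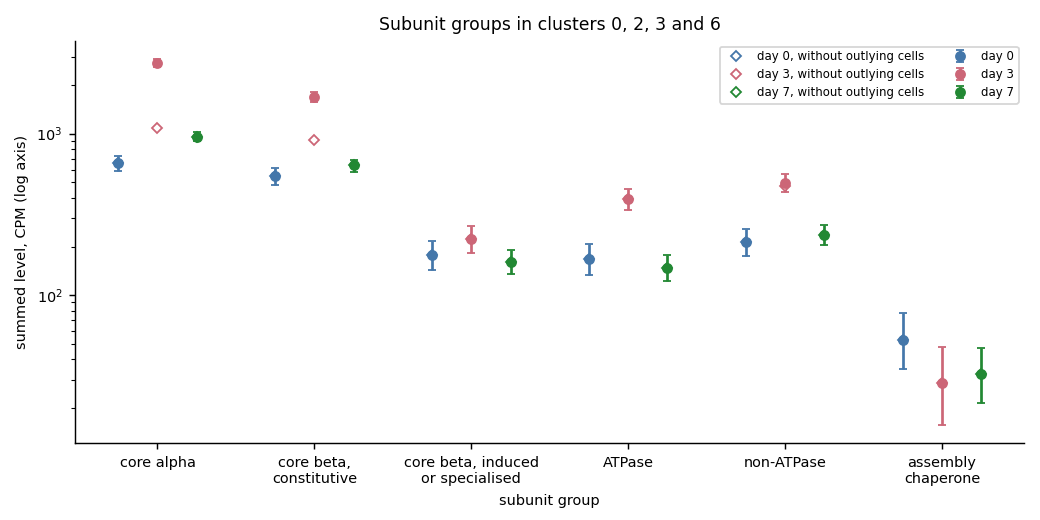
Summed level in CPM (log axis) of each subunit group in clusters 0, 2, 3 and 6 at day 0, 3 and 7. Filled points are all cells with exact 95% Poisson intervals, and open diamonds leave out outlying cells. Core alpha genes at day 3 stand at 2749 CPM with all cells and 1077 without the outlying ones, while the ATPase point does not move.

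Most measured genes shared the direction of the day 3 difference. In the endothelial-like clusters 39 of 42 genes lay above their day 0 level and 3 below, and 38 lay above it without outlying cells. Of all measured genes of the table, 50.3% lay above, or 49.5% without outlying cells. A gene was counted as past 2-fold where its log2 ratio of CPM + 10 reached 1 in either direction. By that count 16 of 42 were past 2-fold higher and 1 past 2-fold lower, while 8.06% of the 7013 measured genes of the table were past it higher and 9.01% lower. Without outlying cells, 11 were past 2-fold higher, against 6.12% of all measured genes. With 50 CPM added in place of 10, 4 were past 2-fold higher (psma2, psma6b, psmb2 and psmb3, each with an outlying cell), against 2.80% of all measured genes. Among genes with 50 or more UMIs, at 10 CPM, 16 of 37 subunit genes were past 2-fold higher, against 13.1% of all such genes. Without outlying cells these were 11 of 37 and 8.65%. The median log2 ratio was 0.76 over the subunit genes, or 0.63 without outlying cells, and 0.01 over all measured genes. These counts describe 1 library against 1 library.

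**Figure D2:**
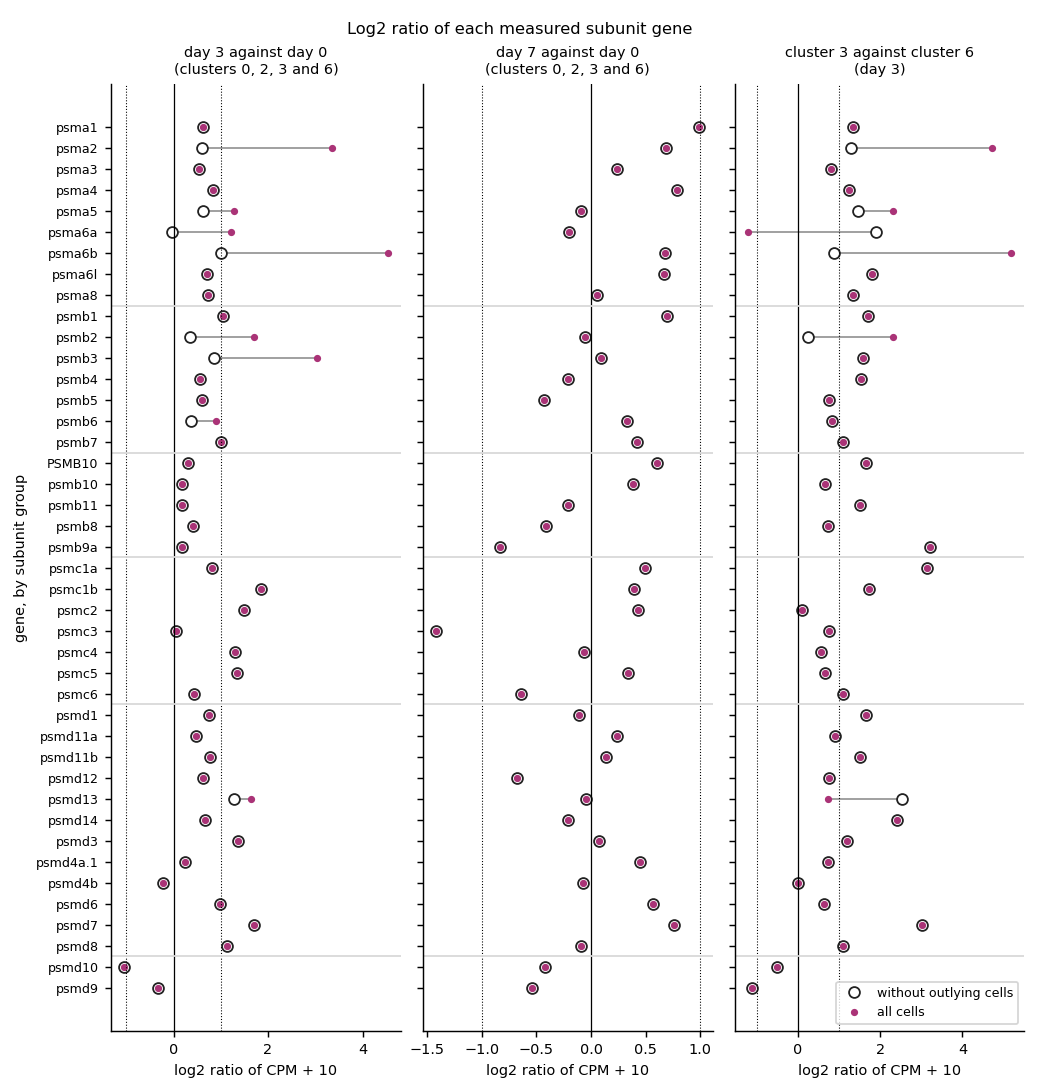
Log2 ratio of CPM + 10 for the 42 measured subunit genes, grouped as core alpha, constitutive beta, induced beta, ATPase, non-ATPase and assembly chaperone from top to bottom. Filled points use all cells, rings leave out each gene's outlying cells, and dotted lines mark 2-fold. In the day 3 against day 0 panel 39 points lie right of 0, in the day 7 panel 23 do, and for psma6a the point and ring of the cluster panel lie on opposite sides of 0.

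All 9 core alpha genes, which form the outer rings and the gate of the core, were above day 0 at day 3, and 4 of them were past 2-fold. Only psma6b was past it without outlying cells, and psma6a then lay just below its day 0 level (log2 ratio -0.04). In CPM at day 0, 3 and 7, psma2 had 96.2, 1081 and 161 in the endothelial-like clusters. Its day 3 log2 ratio of 3.36 became 0.61 without its outlying cells. For psma6b the levels were 19.6, 675 and 37.3 CPM, and its log2 ratio of 4.53 became 1.00. Both genes were thus extreme through 3 cells and moderate in the rest.

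The other alpha genes with 100 or more UMIs showed smaller steps that rest on many cells. Levels at day 0, 3 and 7 were 110.0, 174 and 229 CPM for psma1 and 136, 200.3 and 161 for psma3. They were 82.5, 155 and 149 CPM for psma4 and 104, 178 and 108 for psma8. For psma5 the levels were 72.7, 190.1 and 67.4 CPM, of which an outlying cell with 36 UMIs gave part at day 3 (log2 ratio 1.28 with it, 0.63 without). By these values day 3 was the highest day for 4 of these 5 genes, and psma1 was highest at day 7. The intervals of day 3 and day 7 overlap for psma3 (163 to 244 and 135 to 191) and psma4 (122 to 194 and 124 to 178). They also overlap for psma1 (139 to 215 and 197 to 264). Such overlap does not decide whether counting error could set the order. Ratios of day 7 to day 3 over these clusters were not calculated.

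All 7 constitutive beta genes were above day 0 at day 3, and 4 were past 2-fold, of which psmb1 and psmb7 stayed past it without outlying cells. The level of psmb7, the gene of the trypsin-like catalytic subunit, on day 0, 3 and 7 was 53.0, 117 and 74.6 CPM. For psmb1, the gene of a non-catalytic beta subunit, it was 88.4, 192 and 149 CPM. The day 3 to day 0 folds were 2.20 for psmb7 (1.37 to 3.61) and 2.17 for psmb1 (1.51 to 3.18).

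Single cells shaped psmb3, psmb2 and psmb6 more. For psmb3, levels of 64.8, 603 and 69.8 CPM gave a day 3 log2 ratio of 3.03, or 0.85 without the deepest cell. For psmb2, 114, 390.4 and 109 CPM gave 1.69, or 0.35 without its outlying cell. For psmb6, the gene of the caspase-like subunit, 104, 202 and 134 CPM gave 0.90, or 0.37 without its outlying cell. The levels of psmb4, which had no outlying cell, were 102, 155 and 86.6 CPM.

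In the regulatory particle outlying cells held little of the day 3 difference. Its summed levels on day 0, 3 and 7 were 379, 885 and 384 CPM, and the day 3 level was 867 CPM without the outlying cell of psmd13. The summed ATPase levels on day 0, 3 and 7 were 167, 392 and 148 CPM, and none of the 7 ATPase genes had an outlying cell in these clusters. These genes had 19 to 38 UMIs each at day 3, so few cells could reach the 10 UMIs of that rule. All 7 were above day 0 at day 3 and 4 were past 2-fold, with a median log2 ratio of 1.30. This was the highest median of the 6 groups, against 0.63 for core alpha and 0.59 for constitutive beta genes without outlying cells. With all cells those medians were 0.84 and 1.01. In CPM at day 0, 3 and 7, psmc4 had 25.5, 77.7 and 24.1, psmc5 had 23.6, 75.6 and 32.5, and psmc2 had 11.8, 51.1 and 19.3. Their day 3 folds were 3.04 (1.59 to 6.23), 3.21 (1.64 to 6.76) and 4.34 (1.74 to 12.9). The fourth, psmc1b, had 23 UMIs at day 3 and 3 at day 0, a ratio of 7.98 with an interval of 2.41 to 41.5. Levels of psmc6 were 43.2, 61.3 and 24.1 CPM, with a day 3 interval that spans 1 (0.79 to 2.58), and psmc3 had 20 UMIs on each of day 0 and day 3.

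Among the 12 measured non-ATPase genes, 11 were above day 0 at day 3 and 4 were past 2-fold, with or without outlying cells. These 4 were psmd3, psmd7, psmd8 and psmd13, all genes of the lid, the part of the cap that removes ubiquitin. Most of the 12 are lid genes, and the lid genes psmd6, psmd11a, psmd11b, psmd12 and psmd14 were not past 2-fold. Levels of psmd7, the partner of the deubiquitinating subunit, on day 0, 3 and 7 were 13.7, 67.5 and 30.1 CPM, a day 3 fold of 4.91 (2.13 to 13.1). For psmd8 they were 27.5, 71.5 and 25.3 CPM, a fold of 2.60 (1.37 to 5.24). The deubiquitinase gene itself, psmd14, had 18 UMIs at day 3 and 10 at day 0, with an interval of 0.82 to 4.54. Scaffold gene psmd1 had 21.6, 42.9 and 19.3 CPM. The ubiquitin receptor gene psmd4b was the 1 non-ATPase gene below day 0 (log2 ratio -0.22).

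The assembly chaperones did not share the direction. Both measured chaperone genes lay below day 0 at day 3: psmd10 with 4 UMIs against 14 (fold 0.30, 0.07 to 0.95) and psmd9 with 9 against 13 (0.72, 0.27 to 1.82). Only psmd10 was past 2-fold, and both rest on few molecules. Summed over the 3 chaperone rows, the levels on day 0, 3 and 7 were 53.0, 28.6 and 32.5 CPM.

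In the endothelial-like clusters the induced beta genes had a smaller median day 3 difference from day 0 than the core alpha and constitutive beta genes. All 5 measured ones were above day 0 at day 3, but 0 were past 2-fold and their median log2 ratio was 0.18. Their summed level was 177 CPM at day 0 (142 to 217), 223 at day 3 (183 to 269) and 161 at day 7 (135 to 191), with overlapping intervals. These sums pool unlike clusters. Within cluster 3 the day 7 level was 0.327-fold the day 3 level (0.157 to 0.620), and within cluster 0 it was 1.08-fold (0.606 to 2.095). In CPM at day 0, 3 and 7, psmb8, the counterpart of the induced chymotrypsin-like subunit, had 53.0, 73.6 and 37.3. The row psmb11, listed by RefSeq as an older name of psmb12, had 53.0, 61.3 and 44.5.

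The day 7 levels lay near those of day 0. The summed level at day 7 was 1.20-fold that of day 0 (1.11 to 1.30), with no outlying cell in either group. Of the 42 measured genes, 23 were above and 19 below, 0 were past 2-fold higher and 1 was past 2-fold lower, against 4.68% and 7.2% of all measured genes (2.44% higher without outlying cells). The gene past it was psmc3, with 7 UMIs at day 7 and 20 at day 0 (fold 0.21, 0.08 to 0.53), and the day 0 cells of cluster 0 had 0 of those 20. The alpha genes had the highest median, 0.67, led by psma1 at 2.08-fold (1.54 to 2.85). Over 673 genes with 50 or more UMIs in both groups the median ratio was 0.874, a log2 shift of -0.20. Relative to that median the summed proteasome level was higher by 0.46 on the log2 scale, and psma1 was past 2-fold. The comparisons of day 3 and of day 7 use the same day 0 cells.

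Transcripts that mark other cell types differed between the days in these clusters. Summed over the listed markers, cardiomyocyte transcripts stood at 18716, 1564 and 10287 CPM on day 0, 3 and 7 (3, 3 and 1 of 11 genes at 0), and erythroid transcripts at 5369, 38.8 and 2267 CPM (0, 2 and 1 of 7 genes at 0). Macrophage markers stood at 475, 897 and 359 CPM (6, 0 and 2 of 12 genes at 0) and epicardial markers at 2590.1, 6063 and 2890.0 CPM (2, 3 and 1 of 7 genes at 0). Mural markers stood at 471, 1435 and 771 CPM (2 of 12 genes at 0 on each day) and fibroblast markers at 605, 742 and 1646 CPM (2, 1 and 1 of 11 genes at 0). The defining macrophage genes mpeg1.1, mfap4, csf1ra and c1qa were at 0 at day 0 and had UMIs at day 3. The defining epicardial genes tbx18 and tcf21 were at 0 on both days, and vmhc, myh6 and ryr2b were the cardiomyocyte genes at 0 on both. The part of these transcripts in the proteasome levels was not tested. With cardiomyocyte, globin and mitochondrial genes taken out of the totals, the day 3 log2 ratio of the summed level was 1.57 in place of 1.62.

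The make-up of the endothelial-like cells by cluster also differed between days. At day 0 they were 72 cells of cluster 0, 86 of cluster 2, 6 of cluster 3 and 2 of cluster 6. At day 3 they were 60 cells of cluster 3, 34 of cluster 6, 16 of cluster 0 and 3 of cluster 2, and at day 7 193 of cluster 0, 22 of cluster 3 and 9 of cluster 2. Of the day 3 groups with at least 10 cells, cluster 3 had the highest level. Its summed level at day 3 was 9073 CPM (8667 to 9493), or 4649 without outlying cells. In cluster 6 at day 3 it was 2003 CPM (1803 to 2219), or 1829 without outlying cells. This interval overlaps that of cluster 2 at day 0 (1794 CPM, 1641 to 1957) and of cluster 0 at day 0 (1640.5 CPM, 1466 to 1830). No ratio interval was calculated for these pairs. The 6 uninjured cells of cluster 3, too few to be counted as a group, were high as well: they summed to 4716 CPM (3792 to 5797), with 2322 CPM in the lowest and 8065 in the highest cell.

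Cluster 0 was the only cluster with 10 or more cells at both day 0 and day 3. There the summed level was 5109.8 CPM at day 3 against 1640.5 at day 0 (3.12-fold, 2.70 to 3.60), but 2168.5 CPM at day 3 without outlying cells. Its 16 day 3 cells include the deepest cell of that library, with 31129 of the group's 90611 UMIs. That cell was left out as outlying for psmb3 alone, so it weighs heavily in the pooled levels of this group. The macrophage markers of these 16 cells summed to 2318 CPM, against 374 in the day 0 cells of the cluster. Of the 12 listed genes, 6 and 8 were at 0, and mpeg1.1, mfap4, csf1ra and c1qa were at 0 on both days.

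**Figure D3:**
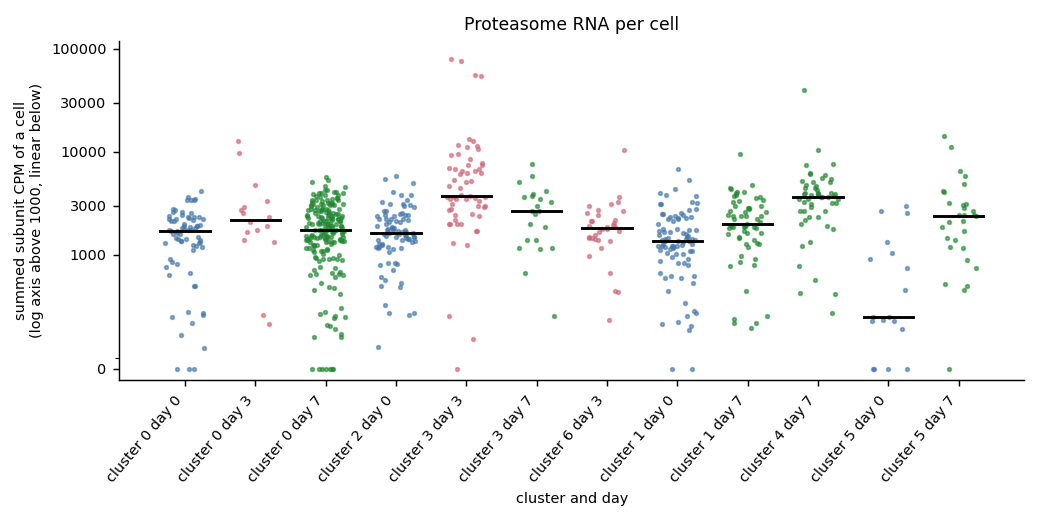
Summed subunit CPM of each cell (axis linear near 0 and log above), by cluster and day. Points are cells and are coloured by day, and bars are medians. Day 3 cells of cluster 3 have a median of 3757 CPM and 4 cells far above the rest, while day 3 cells of cluster 6 have a median of 1824.

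Medians over cells give a few very rich cells little weight. The median day 3 cell of cluster 3 had 3757 CPM (lower and upper quartile 2667 and 7437). This median was the same without outlying counts, but it could not move, since the cells that held them stayed above it. In cluster 6 at day 3 the median was 1824 CPM (1414 and 2386), and in clusters 0 and 2 at day 0 it was 1709.6 and 1636 CPM. With every cell thinned to 2000 UMIs, the median day 3 cell of cluster 3 had 6 different subunit genes, against 3 in cluster 6 at day 3 and 3 in clusters 0 and 2 at day 0. Before thinning these medians were 9, 5.5, 4 and 4. Cluster 6 cells were the deeper ones, with a median of 4408 UMIs against 2880.5 in cluster 3.

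Within the day 3 library, where drug, injury and library are shared, cluster 3 stood at 4.53-fold the level of cluster 6 (4.05 to 5.08), or 2.54-fold without outlying cells. Marker sums differed between them too: in cluster 3 and cluster 6 endothelial markers stood at 2552 and 11979 CPM, mural markers at 610.03 and 2616, epicardial markers at 3694 and 9413, and macrophage markers at 838 and 306 (1 and 6 of 12 genes at 0). Their part in the contrast was not tested. Of the 42 measured genes, 39 were higher in cluster 3, against 47.6% of all measured genes. Of the 42, 24 were past 2-fold higher and 2 past 2-fold lower, against 15% and 14.1% of all measured genes. Without outlying cells 24 were past 2-fold higher, against 14.2%, and 1 lower. With 50 CPM added in place of 10, 13 were past 2-fold higher, against 3.44%. Among genes with 50 or more UMIs, at 10 CPM, 23 of 37 subunit genes were past 2-fold higher, against 21.3% of all such genes. The clusters were made from these same cells, and psma2 is among the 10 leading genes of cluster 3, so this contrast is a description. Medians of the log2 ratio were 1.35 for core alpha, 1.53 for constitutive beta, 1.52 for induced beta, 0.77 for ATPase, 0.99 for non-ATPase and -0.81 for chaperone genes.

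Several subunit genes had 0 or 1 UMI in cluster 6. The lid gene psmd7 had 24 UMIs in cluster 3 and 1 in cluster 6, and psmd14 had 15 and 1. ATPase gene psmc1a had 16 UMIs in cluster 3 and 0 in cluster 6, and the induced beta gene psmb9a had 17 and 0. Set against 3 counts in cluster 6, these are at least 4.72-fold and at least 5.01-fold higher in cluster 3, without the counting error of cluster 3. Cluster 6 had 182730 UMIs in all, so 3 counts there equal 16.4 CPM.

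Shares of cells with a UMI gave the same direction at equal depth. After thinning to 2000 UMIs, psma1 was found in 41.7% of the day 3 cells of cluster 3 (29.1 to 55.1, exact Clopper-Pearson) and 5.88% of those of cluster 6 (0.72 to 19.7). Unthinned, these shares were 55.0% and 35.3%. For psmb1 the thinned shares were 40.0% and 8.82%, and for psmb4 40.0% and 11.8%. Unthinned, they were 53.3% and 29.4% for psmb1 and 46.7% and 26.5% for psmb4. The lid gene psmd7 was found in 26.7% of the former (16.1 to 39.7) and in 0 of 34 of the latter (exact upper limit 10.3%; 3 counts in 34 cells are 8.82%). Unthinned, the shares of psmd7 were 33.3% and 2.94%. Of 22 genes compared after thinning, 19 shares were higher in cluster 3 and 3 lower. The 4 genes named are those whose thinned intervals did not overlap. The same comparison was not made over all genes, so that count has no background share. Thinning was drawn once, and cells are not replicates. No cell type is known to lack the constitutive proteasome, so free RNA could not be gauged from such a type.

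For psma6a, one cell turned the direction. Cluster 6 had 23 UMIs of it, 22 of them in 1 cell, and cluster 3 had 10, which gave a log2 ratio of -1.22, or 1.91 without that cell. The lid gene psmd13 moved from 0.74 to 2.52 when a cluster 6 cell with 10 UMIs was left out. The chaperone gene psmd9 had 2 UMIs in cluster 3 and 6 in cluster 6.

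Cluster 3 also held 22 day 7 cells, at 3058 CPM (2712 to 3436) and a median of 2648 per cell. This lay between the day 3 cells of the same cluster and the day 7 cells of cluster 0 (1969.9 CPM, 1867 to 2078). Day 3 cells of cluster 3 were at 2.97-fold its day 7 cells (2.62 to 3.37), or 1.52-fold without outlying cells, with 16 genes past 2-fold higher and 2 lower, against 16.6% and 17.7% of all measured genes. The 2 lower genes were the chaperone genes psmd9 and psmd10, with 2 and 1 UMIs at day 3. Among genes with 50 or more UMIs, 15 of 37 subunit genes were past 2-fold higher, against 21.4% of all such genes. Macrophage markers summed to 838 CPM in the day 3 cells and 2453 CPM in the day 7 cells of cluster 3 (1 and 6 of 12 genes at 0). The genes at 0 at day 7 include mpeg1.1, mfap4, csf1ra and c1qa, which had UMIs at day 3. Fibroblast markers summed to 847 and 3371 CPM (3 of 11 genes at 0 on each day). The part of these macrophage and fibroblast transcripts in the difference was not tested.

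**Figure D4:**
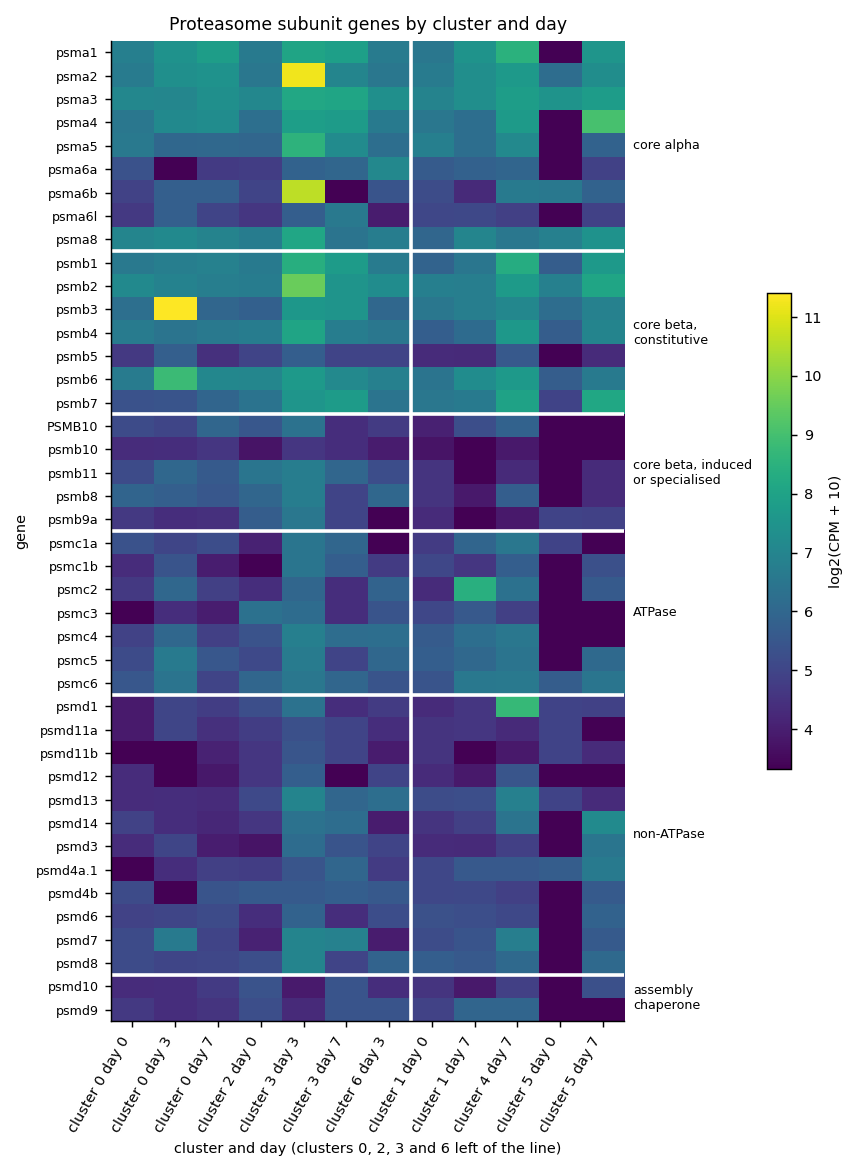
Level of each measured subunit gene as log2(CPM + 10), in colour, by cluster and day (columns) and subunit group (rows). Endothelial-like clusters stand left of the vertical line. Cluster 3 at day 3 and cluster 4 at day 7 are brighter than the other columns through most rows, and single bright fields, such as psmb3 in cluster 0 at day 3 (238 UMIs in 1 cell), mark outlying cells.

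Over all 12 groups of cluster and day, the summed level was lowest in cluster 5 at day 0 (951 CPM, 694 to 1273). Cluster 1 at day 0 (1579), cluster 0 at day 0, cluster 2 at day 0, cluster 0 at day 7, cluster 6 at day 3 and cluster 1 at day 7 (2373) followed in this order, each with an interval that overlaps that of the next. Cluster 3 and cluster 5 at day 7 (3058 and 3207) overlapped each other, and cluster 4 at day 7 (4183), cluster 0 at day 3 and cluster 3 at day 3 each stood apart from the group below. Without outlying cells the 3 highest were cluster 3 at day 3 (4649), cluster 4 at day 7 (3777) and cluster 3 at day 7 (3058).

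The fibroblast-like cluster 4 held 53 day 7 cells and 1 day 3 cell. Its day 7 level was 2.12-fold that of cluster 0 on the same day (1.95 to 2.31), or 1.92-fold without outlying cells. There 19 subunit genes were past 2-fold higher and 1 lower, against 15.7% and 13% of all measured genes. Among genes with 50 or more UMIs, 18 of 37 subunit genes were past it higher, against 20.7% of all such genes. By group, 5 of 7 ATPase, 6 of 12 non-ATPase, 5 of 7 constitutive beta, 2 of 9 alpha and 0 of 5 induced beta genes were past 2-fold higher. Catalytic gene psmb7 had 51 UMIs in cluster 4 (244 CPM) against 52.1 CPM in cluster 0, a fold of 4.68 (2.99 to 7.37). Lid gene psmd13 had 105 against 10.1 CPM (10.4-fold, 4.28 to 28.7). The scaffold gene psmd1, at 421 against 17.4 CPM, had 85 of its 88 cluster 4 UMIs in 1 cell, and its log2 ratio of 3.98 became -0.16 without that cell. The gene past 2-fold lower was psmb11, with 2 UMIs in cluster 4.

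In the mural-like cluster 1 the summed level was 1.50-fold higher at day 7 than at day 0 (1.32 to 1.71), or 1.31-fold without outlying cells. There 6 genes were past 2-fold higher and 2 lower, against 8.83% and 10% of all measured genes, so the share higher was near the background. Among genes with 50 or more UMIs, 6 of 37 subunit genes were past it higher, against 11.9% of all such genes. ATPase genes made up 3 of the 6: psmc2, psmc1a and psmc6. The level of psmc2 went from 9.97 to 335 CPM, with 64 of its 71 day 7 UMIs in 2 cells, and its log2 ratio of 4.11 became 1.16 without them. For psmc6 it was 33.2 and 84.9 CPM (2.55-fold, 1.12 to 6.19).

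In the cardiomyocyte-like cluster 5 the level was 951 CPM at day 0 (18 cells, 45 subunit UMIs) and 3207 CPM at day 7 (30 cells, 330 UMIs), a fold of 3.37 (2.46 to 4.71). Without an outlying psma4 cell of 43 UMIs the day 7 level was 2792.5 CPM. The median cell had 458 CPM at day 0 and 2396 at day 7, and 1 and 3 subunit genes after thinning. With so few cells 20 genes were past 2-fold higher and 2 lower, against 15.2% and 13.2% of all measured genes. Among genes with 50 or more UMIs, 19 of 37 subunit genes were past it higher, against 22.4% of all such genes. Catalytic gene psmb7 had 28 UMIs at day 7 and 1 at day 0, and the alpha gene psma1 had 18 and 0. Cardiomyocyte markers summed to 142170 CPM at day 0 and 125970 CPM at day 7 in this cluster (3 and 0 of 11 genes at 0). The 3 genes at 0 at day 0 were vmhc, myh6 and ryr2b, and 3 counts in those cells equal 63.4 CPM. Mural markers summed to 317 and 2070 CPM (8 and 5 of 12 genes at 0). The part of these marker differences in the proteasome levels was not tested.

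Within cluster 0, which had 72 cells at day 0 and 193 at day 7, the summed level was 1.20-fold higher at day 7 (1.06 to 1.36). Only psma1 and psmd4a.1 were past 2-fold higher and 0 were lower, against 8.63% and 7.73% of all measured genes. The level of psma1 was 103 CPM at day 0 and 217 at day 7 (2.12-fold, 1.32 to 3.57), and its day 7 level was also 2.08-fold over all endothelial-like cells. Row psmd4a.1, a ubiquitin receptor gene by its name, had 13 UMIs at day 7 and 0 at day 0. Set against 3 counts at day 0, which equal 15.4 CPM, it would not be past 2-fold.

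The ratio of core to regulatory particle transcripts differed between groups. It was 3.64 at day 0, 5.27 at day 3 and 4.58 at day 7 in the endothelial-like clusters, and 2.55 at day 3 without outlying cells. It is a ratio of UMI sums over unlike genes, so it is compared between groups only and says nothing of the particles' amounts. Without outlying cells, it was 2.48 in cluster 3 and 2.70 in cluster 6 at day 3, and 4.43 and 5.01 in cluster 0 at day 0 and day 7. Outlying cells thus decided whether day 3 stood above or below day 0 in this ratio.

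The induced beta genes differed between cell types. These 5 rows were psmb8, psmb9a, psmb10, PSMB10 and psmb11. RefSeq (assembly GRCz12tu) lists both psmb10 and PSMB10 under psmb10 and as a synonym of psmb13a, so those rows cannot be told apart by name. In that assembly psmb13a, psmb8a, psmb12 and psmb9a are consecutive protein-coding genes on chromosome 19, followed by the peptide transporter gene tap2a. In the endothelial-like clusters the 5 rows summed to 177 CPM at day 0, against 46.5 CPM in the mural-like cluster, a fold of 3.80 (2.15 to 7.22). At day 7 they summed to 161 against 33.0 CPM (4.88-fold, 2.31 to 12.4). In the cardiomyocyte-like cluster they had 1 UMI at day 0 and 4 at day 7 (38.9 CPM), and in the fibroblast-like cluster 110.0 CPM at day 7, with an interval (69.7 to 165) that overlaps the endothelial one.

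**Figure D5:**
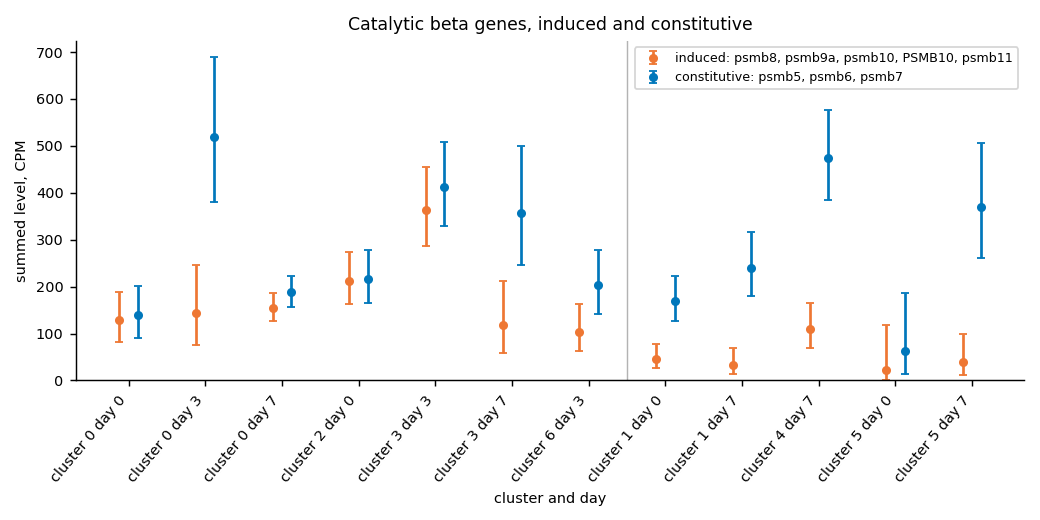
Summed level in CPM of the 5 induced beta rows and of the 3 constitutive catalytic genes psmb5, psmb6 and psmb7, by cluster and day, with exact 95% Poisson intervals and all cells. Endothelial-like clusters stand left of the line. The induced rows stand at 363 CPM in cluster 3 at day 3 and at 33.0 to 46.5 CPM in cluster 1.

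Against their constitutive counterparts psmb5, psmb6 and psmb7, the induced rows had 1.00 UMI per UMI in the endothelial-like clusters at day 0 (0.74 to 1.35), 0.63 at day 3 (0.49 to 0.81; 0.77 without an outlying psmb6 cell) and 0.73 at day 7 (0.58 to 0.92). In the mural-like cluster this ratio was 0.27 at day 0 (0.14 to 0.50) and 0.14 at day 7 (0.05 to 0.30). It was 0.23 in the fibroblast-like cluster at day 7 (0.14 to 0.37). Single endothelial-like groups differed in this ratio. It was 0.51 in cluster 6 at day 3 (0.28 to 0.92) and 0.33 in cluster 3 at day 7 (0.15 to 0.68). Both intervals overlap that of the mural-like cluster at day 0. In cluster 3 at day 3 it was 0.88, and in cluster 2 at day 0 it was 0.98. In cluster 0 it was 0.93, 0.28 (0.88 without outlying cells) and 0.82 at day 0, 3 and 7. The constitutive catalytic genes stood at 473 CPM in the fibroblast-like cluster, above every other group apart from cluster 0 at day 3 (519 CPM, or 164 without an outlying psmb6 cell), though with an interval that overlaps those of clusters 3 and 5 at day 7 and cluster 3 at day 3.

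Within the day 3 library the induced rows stood at 363 CPM in cluster 3 (286 to 455) and 104 CPM in cluster 6 (62.6 to 162), and in the day 7 cells of cluster 3 at 119 CPM (59.3 to 213). The day 0 cells of cluster 2 had 212 CPM (162 to 273), and cluster 0 had 128, 143 and 155 CPM at day 0, 3 and 7 with overlapping intervals.

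Other genes of the pathway came from a list of activators, the inhibitor, assembly factors, bound cofactors, regulators, shuttle factors and ubiquitin genes, of which 38 were in the table and 29 were measured. At day 3 against day 0 in the endothelial-like clusters 23 of the 29 were higher, 6 past 2-fold higher and 0 past 2-fold lower, or 3 past 2-fold higher without outlying cells. Over all measured genes 50.3% were higher. Past 2-fold were 8.06% higher and 9.01% lower, or 6.12% higher without outlying cells. The ubiquitin genes had the highest median (1.29, or 0.91 without outlying cells). The polyubiquitin gene ubb on day 0, 3 and 7 was at 128, 390.4 and 71.0 CPM. For ubc, the other polyubiquitin gene, levels of 177, 632 and 248 CPM gave a day 3 log2 ratio of 1.78, or 0.91 without outlying cells. The segregase gene vcp, whose product pulls tagged proteins out of complexes, had 29.5, 73.6 and 51.7 CPM, a day 3 fold of 2.50 (1.33 to 4.91).

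Some other pathway genes were lower at day 3, near their day 0 level, or higher only with outlying cells. The gene shfm1, whose product is a small lid subunit under another name, was at 273 CPM at day 0 and 141 at day 3 (interval of the fold 0.38 to 0.69). The core maturation factor pomp was at 269 and 280.05 CPM. Its day 7 level of 474 CPM gave a log2 ratio of 0.79, or -0.18 without outlying cells. The regulator gene akirin2, which serves nuclear import of the proteasome in human cells, had a day 3 log2 ratio of 1.32, or -0.32 without outlying cells. The inhibitor gene psmf1 was at 39.3, 24.5 and 22.9 CPM.

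Between the day 3 clusters the polyubiquitin gene ubb ran against most subunit genes. In cluster 3 it stood at 271 CPM against 536 in cluster 6 (interval of the fold 0.36 to 0.71). Activator gene psme2, whose product caps the core in place of the ATPase particle, stood at 155 against 16.4 CPM, with 32 and 3 UMIs. Of the 29 measured pathway genes, 16 were higher in cluster 3, against 47.6% of all measured genes. Of the 29, 11 were past 2-fold higher and 5 past 2-fold lower, against 15% and 14.1% of all measured genes.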

How the data were processed

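Cell Ranger and, as genome build, GRCz10 were used, per the submitters' processing notes. Not given in the sources used here are the Cell Ranger version and the tool that scaled the values. Values of the deposited table were natural log values scaled to 10000 UMIs per cell, and the deposited metadata gave the UMI count, gene count, day and cluster of each cell. Reversing the logarithm and multiplying by the cell's UMI count over 10000 gave 497895 values above 0, all within 0.001 of a whole number (largest distance 0.000479). Summed per cell, they gave the UMI count of the deposited metadata in 754 of 754 cells. These recovered counts were used, and 0 columns of samples were left unused.

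All deposited cells were kept: 272, 114 and 368 at day 0, 3 and 7, where the labels state a recovery of 272, 141 and 368. The fewest UMIs in a cell were 2004. Doublets were not searched for here, and their treatment by the authors is not stated in the labels. Per the labels' protocols, cells of 2 digestion sets per day were pooled. Cells are not replicates, so levels are sums over cells. Ratios carry exact conditional 95% intervals and shares exact Clopper-Pearson ones. UMIs were treated as independent. Log2 ratios carry 10 CPM in both groups. Groups at 0 UMIs were set to 3 counts for a bound. Leading genes of a cluster were taken among genes found in at least 25% of its cells. Thinning to 2000 UMIs left out 0 cells. The steps were tested on simulated counts. Python 3.11.15, NumPy 2.4.6, pandas 2.3.3, SciPy 1.17.1 and Matplotlib 3.10.9 were used.

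The members, subunit groups, pathway list and marker lists were chosen with earlier results of these data known. Every subunit gene could be named. Those with 100 or more UMIs were to get a level on each day, and pathway genes were to be named with 50 or more. Genes under 100 UMIs that are named were chosen after their values were seen. By name, 46 of 48 rows matched a RefSeq symbol or synonym. Alternatives tried were other pseudocounts, filters, totals and scalings, means over cells, other groups of cells, and leaving out the richest, deepest or outlying cells. No sequences were analysed here, and RefSeq's assembly, which is not the build of the files, was used only for names and for which genes neighbour each other. One pathway gene is not reported here by name.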

Additional observations from a re-analysis of the deposited data

How the results depend on the processing

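There were 62 alternative values for the 3 summed ratios and the 3 counts of genes past 2-fold. Of these, 45 lay within the counting interval or within 1.5 times the count, and 17 moved beyond it. Of the summed ratios 0 reversed, while a count could not reverse by the rule used. Some of the 45 could not move. The deepest day 3 cell, of cluster 0, is in neither day 7 against day 0 nor cluster 3 against cluster 6. Day 7 against day 0 also had no outlying subunit cell. For the summed level at day 3 against day 0 in the endothelial-like clusters (log2 1.62), the richest cells left out gave 1.04, the outlying cells left out 0.78, the median over genes 0.76 and all cells of the libraries 1.74. For day 7 against day 0 (log2 0.26), median-of-ratios scaling gave 0.46, the median over genes 0.082 and all cells 0.62. For cluster 3 against cluster 6 (log2 2.18), the richest cells left out gave 1.87, the outlying cells left out 1.35 and the median over genes 1.15. With 50 CPM in place of 10, 4 genes in place of 16 were past 2-fold at day 3 (psma2, psma6b, psmb2 and psmb3; 2.80% of all genes), and 13 in place of 24 in cluster 3 (3.44%). At day 7 the count of 0 became 1 (psma1) without the richest cells or with median-of-ratios scaling, and 2 with 1 CPM (psma1 and psmd7) or in cluster 0 only (psma1 and psmd4a.1). It became 5 with all cells (psma1, psma4, psmb1, psmc2 and psmd1). Most single genes had under 50 UMIs in a compared group, so differences within their intervals were not detectable at this depth. Variation between fish was not measured.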
